A study of Mus musculus with 12 samples.

Results

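The genes described here encode the ADAM, ADAMTS and ADAMTS-like proteins, the matrix metalloproteinases (MMPs) and their tissue inhibitors (TIMPs), in lumbar dorsal root ganglia of mouse pups after early life stress. Members were chosen by symbol alone (Adam, Adamts, Adamtsl, Mmp or Timp followed by a number), which gave 57 of the 15322 genes in the table: 15 ADAM, 19 ADAMTS, 5 ADAMTS-like, 14 MMP and 4 TIMP genes. All 57 passed the filter on low values and were tested. Dorsal root ganglia hold the cell bodies of sensory neurons with their satellite glia, Schwann cells, blood vessels and connective tissue. Total RNA was sequenced from ganglia of lumbar levels L3 to L5, taken at postnatal day 9 (P9) from wild-type (WT) pups of both sexes. Between P2 and P9 each dam and its pups had either limited bedding material, called neonatal limited bedding (stress), or control bedding. Each of the 4 combinations of sex and bedding had 3 libraries. Litter mates and pooling of animals are not described in the labels, so the p-values reflect only how far these libraries varied.

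ADAMs are membrane-anchored proteases that cut the outer parts off other surface proteins, and some members lack the catalytic site and act as adhesion receptors. ADAMTS proteases are secreted and cut proteoglycans, procollagens and other matrix proteins, whereas ADAMTS-like proteins resemble them without the protease domain. MMPs cut collagens and many other matrix and surface proteins, and TIMPs block MMPs and some ADAMs and ADAMTS proteases. In peripheral nerve these enzymes are known for processing neuregulin during myelination, for remodelling matrix after injury and for the LGI and ADAM22 pathway of myelin and axon.

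Values are counts that the authors normalized between libraries. Depth, estimated from the size of 1 read in the low values, was 16500000 to 27000000 reads in 11 libraries and is unknown in stress female replicate 2. The labels of sex and tissue held in all 12 libraries. Xist ranged from 1101 to 1726 normalized counts in the female libraries and did not exceed 8.77 in the male ones. The sensory neuron genes Avil and Prph were at 19750 to 23540 and 50790 to 58170. The bedding labels were not checked in this way. RNA levels of bulk tissue cannot tell fewer cells of a type from less RNA per cell.

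Promoter windows are shown for members that moved in opposite directions, and no link between sequence and direction was tested. RefSeq windows on GRCm38.p6, cut to the 250 bases before each start, were listed for 36 of the 57 members. Shown 5′ to 3′ are those of the 2 members that fell and the 2 that rose with the lowest p among those with a window. Capitals mark GC boxes (GGGCGG on either strand), the usual sites of SP1-type factors:
Mmp14, chr14:54431348-54431597, plus strand: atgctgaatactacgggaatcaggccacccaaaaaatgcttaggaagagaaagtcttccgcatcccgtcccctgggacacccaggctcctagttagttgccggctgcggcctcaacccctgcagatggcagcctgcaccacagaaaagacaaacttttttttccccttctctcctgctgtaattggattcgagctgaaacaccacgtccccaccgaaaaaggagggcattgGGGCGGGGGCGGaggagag
Adam8, chr7:139992563-139992812, minus strand: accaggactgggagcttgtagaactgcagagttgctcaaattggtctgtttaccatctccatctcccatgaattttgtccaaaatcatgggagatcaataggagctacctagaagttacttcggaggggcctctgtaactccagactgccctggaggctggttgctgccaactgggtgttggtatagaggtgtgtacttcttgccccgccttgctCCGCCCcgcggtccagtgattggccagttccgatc
Adamts9, chr6:92943535-92943784, minus strand: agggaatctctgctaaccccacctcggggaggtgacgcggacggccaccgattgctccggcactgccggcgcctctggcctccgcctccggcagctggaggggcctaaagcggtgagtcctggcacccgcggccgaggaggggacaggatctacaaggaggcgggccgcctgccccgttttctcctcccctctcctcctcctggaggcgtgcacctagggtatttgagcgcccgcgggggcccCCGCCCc
Mmp24, chr2:155775092-155775341, plus strand: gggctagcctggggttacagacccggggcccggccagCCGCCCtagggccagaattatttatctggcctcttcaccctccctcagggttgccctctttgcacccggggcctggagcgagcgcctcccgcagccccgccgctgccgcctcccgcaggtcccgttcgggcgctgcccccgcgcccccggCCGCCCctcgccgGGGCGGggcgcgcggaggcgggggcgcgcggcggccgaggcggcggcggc
Each of these windows held at least 1 GC box. Of 39 windows of members, 24 (61.5%) held one, against 55.2% of 15285 windows of tested genes. The AP-1 motif TGAGTCA on either strand, well known from MMP promoters, was present in 2 member windows (5.13%), those of Adam19 and Mmp13, against 3.29% of windows of tested genes. The palindromic glucocorticoid receptor motif was in 0 of 39 member windows and in 1 of the 15285. An exact motif this rare is expected in almost no window, so its absence cannot show that members lack such sites.

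Levels of different genes were compared as normalized counts per kilobase of merged exon in GENCODE M21, averaged over the 12 libraries. Timp2 stood above every other member at 5652 per kb. Adam11 followed at 1026, then Mmp15 at 985, Adam10 at 890 and Timp3 at 764. The neuronal and widely expressed ADAMs and the membrane-type MMPs filled most of the upper range. ADAMTS genes reached at most 234 per kb (Adamts5), and the lowest members were Adamts13 at 1.64 and Adam32 at 1.93. Of the inhibitors, Timp1 was at 42.9 and Timp4 at 2.23 per kb. The gelatinase Mmp9, often studied in injured nerve, was at 6.42 per kb, against 360 for the other gelatinase, Mmp2.

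**Figure D1:**
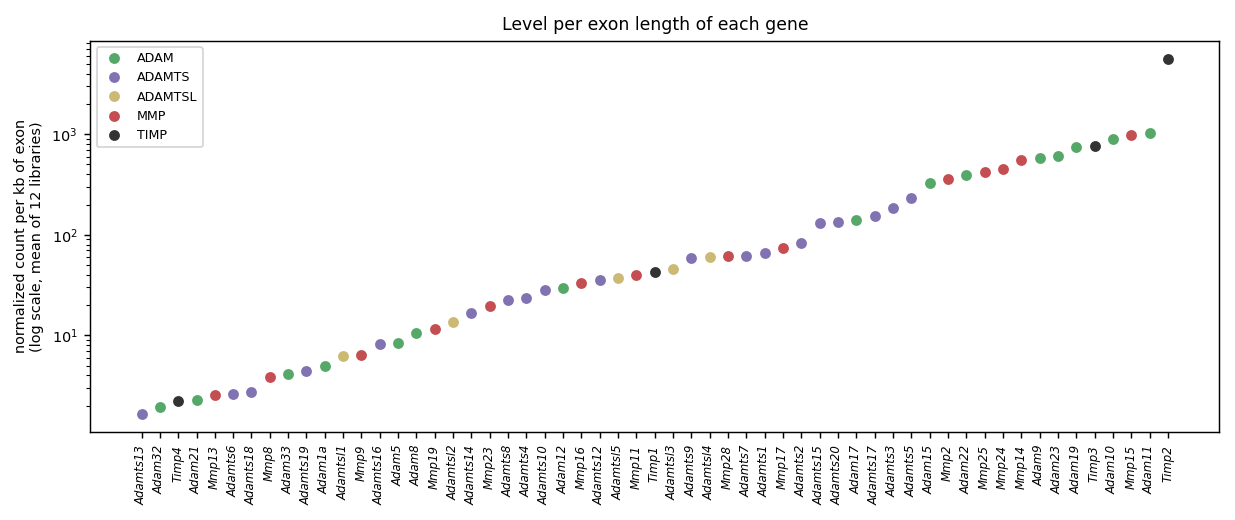
Mean level of each of the 57 genes over the 12 libraries, in normalized counts per kb of merged exon on a log axis, ordered from lowest to highest and coloured by family. Timp2 lies highest at 5652 and Adamts13 lowest at 1.64.

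Over both sexes, 25 of the 57 members (43.9%) passed the threshold for a difference between stress and control, 10 higher and 15 lower (limma, Benjamini-Hochberg adjusted p under 0.05 over 15194 genes). Of all tested genes 26.2% passed, 12.8% higher and 13.4% lower. The median log2 fold change of the members was -0.04, against 0.01 for all genes. Most changes were small: 7 of the 25 called members exceeded 1.5-fold, against 613 of the 3984 called genes. Of all tested genes, called or not, those were 7 of 57 members and 4.03% of 15194 genes. The 6 stress libraries lay wholly below the 6 control libraries for 6 members and wholly above them for 5, 11 in all, against 5.73%, 5.21% and 10.9% of all genes. Adam8, Adam33, Mmp2 and 3 ADAMTS-like genes were among the falls, Adamts9, Adamts3, Adamts19 and 3 membrane-type MMPs among the rises, and no TIMP passed.

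**Figure D2:**
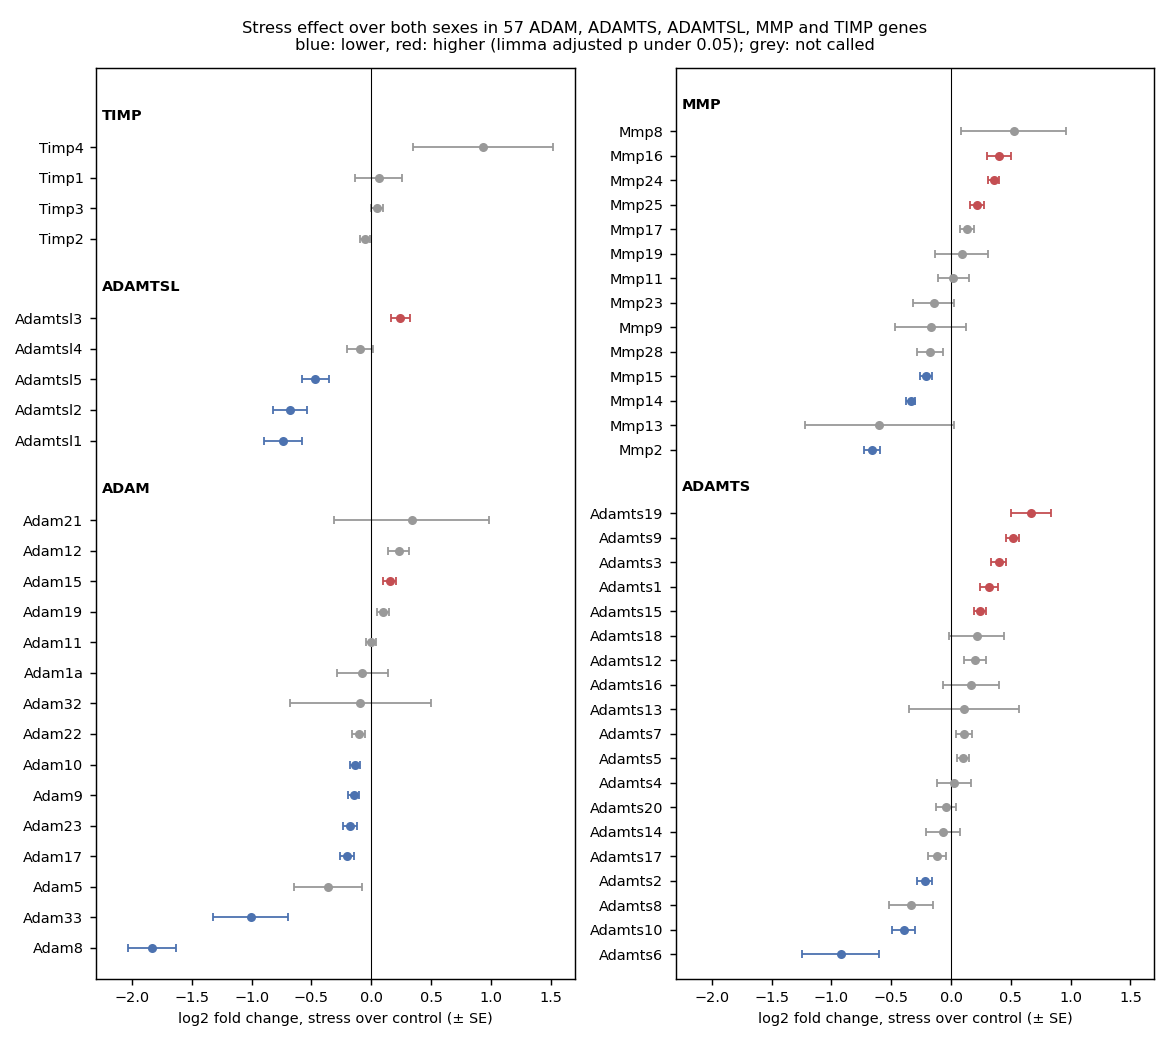
Log2 fold change of stress over control across both sexes for the 57 genes by family, with standard errors from the model of 12 libraries. Blue points are the 15 genes called lower, red points the 10 called higher, and grey points were not called. Adam8 lies farthest left at -1.84, and all 4 TIMP genes are grey.

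The largest change of any ADAM was in Adam8, a protease known from leukocytes that cuts adhesion molecules. Its normalized counts in control females were 94.3, 64.8 and 84.8, and in control males 55.04, 91.1 and 68.2. Stress females were at 25.1, 25.1 and 22.5, and stress males at 23.1, 18.2 and 11.5. Every stress library was thus below every control library, and the means were 76.4 ± 15.9 in control and 20.9 ± 5.28 in stress (SD, n = 6 each). The log2 fold change was -1.84 ± 0.20 (SE, limma adjusted p = 7.70e-06). Markers of macrophages had 3 of 13 members higher and none lower, and their summed level was 2560 to 3116 normalized counts in control and 2726 to 3526 in stress. Of 13 neutrophil markers 8 were measured, with 2 higher (Prtn3 and Mpo) and none lower, and a summed level of 72.1 to 193 in control and 134 to 226 in stress. By sign these 8 were split, 4 positive and 4 negative. S100a9 was at -0.67 ± 0.29 and Camp at -0.66 ± 0.49, neither called, and Mpo averaged only 1.74 normalized counts in control. Over all tested genes 12.8% were called higher and 13.4% lower. The part of either cell type in the fall of Adam8 was not tested.

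Among the other catalytic ADAMs, Adam33, known from mesenchymal cells, fell from 29.1 ± 8.63 to 15.1 ± 7.62 normalized counts, a log2 fold change of -1.01 ± 0.31 (limma adjusted p = 0.0249). Its ranges overlapped, at 17.8 to 41.6 in control and 4.81 to 25.8 in stress. The main cell-surface sheddases changed little. Adam10, which cuts Notch and many neuronal proteins, fell from 4578 ± 244 to 4166 ± 171 (log2 fold change -0.14 ± 0.04, limma adjusted p = 0.0231). Adam17, the protease that releases TNF, fell from 1065 ± 82.8 to 924 ± 71.0 (-0.20 ± 0.06, limma adjusted p = 0.0161), and Adam9 fell from 2527 ± 96.3 to 2295 ± 278 (-0.15 ± 0.04, limma adjusted p = 0.0222). Adam15 was the only ADAM called higher by limma, with control libraries at 1819 to 1931 and stress libraries at 1937 to 2514 (0.15 ± 0.05, limma adjusted p = 0.0372), and 20.6% of its exon bases are shared with an antisense gene. Adam12 and Adam19, the meltrins, had log2 fold changes of 0.23 ± 0.09 and 0.09 ± 0.05 (limma adjusted p = 0.0628 and 0.176). In the authors' deposited table Adam12 was called higher (adjusted p = 0.0463). Adam21, at 0 to 15.9 normalized counts, was too low for a direction to be read.

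Several of these calls depended on single libraries. Adam17 lost its call without control male replicate 2 (limma adjusted p = 0.0513), and Adam10 lost it without control female replicate 1 or 2 or control male replicate 1 or 2 (0.0551 to 0.0680). Adam9 lost it without control female replicate 1, control male replicate 3 or stress female replicate 1 (0.0534 to 0.0687), and Adam33 without control female replicate 3, control male replicate 2, stress female replicate 1 or stress male replicate 2 (0.0551 to 0.0708). The call of Adam15 held only without stress female replicate 1 or stress male replicate 1, and was lost without each of the other 10 libraries (0.0507 to 0.0880).

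The neuronal ADAMs that lack a working catalytic site were abundant, and their changes over both sexes were small. Adam23 fell from 11507 ± 519 to 10186 ± 951 normalized counts (log2 fold change -0.18 ± 0.06, limma adjusted p = 0.0278), and its call was lost without each of 8 libraries (0.0527 to 0.0715), all except control female replicate 2, control male replicate 1, stress female replicate 3 and stress male replicate 3. Adam22, the receptor of LGI proteins, was at 5851 ± 343 and 5461 ± 550 (-0.10 ± 0.05, limma adjusted p = 0.173). Adam11 was at 5822 ± 290 and 5810 ± 308, a log2 fold change of 0.00 ± 0.04 (limma adjusted p = 0.969). Of a list of LGI ligands and proteins found with ADAM22, 4 of 9 fell and none rose, where 13.4% of all genes fell and 12.8% rose. Lgi1 and Lgi3 fell by 0.37 and 0.33 on the log2 scale, and the juxtaparanodal potassium channels Kcna2 and Kcna1 fell by 0.32 and 0.24. Lgi4, the ligand from glia that is needed for peripheral myelination, was at -0.11 ± 0.05 (limma adjusted p = 0.134). The ADAMs best known from testis, Adam1a, Adam5 and Adam32, had mean levels of 5.26 to 38.0 normalized counts in either treatment and none was called. Of the exon bases of Adam1a, 63.7% are shared with Gm42878 and 24.0% with Mapkapk5, both on the same strand, so its value is uncertain.

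**Figure D3:**
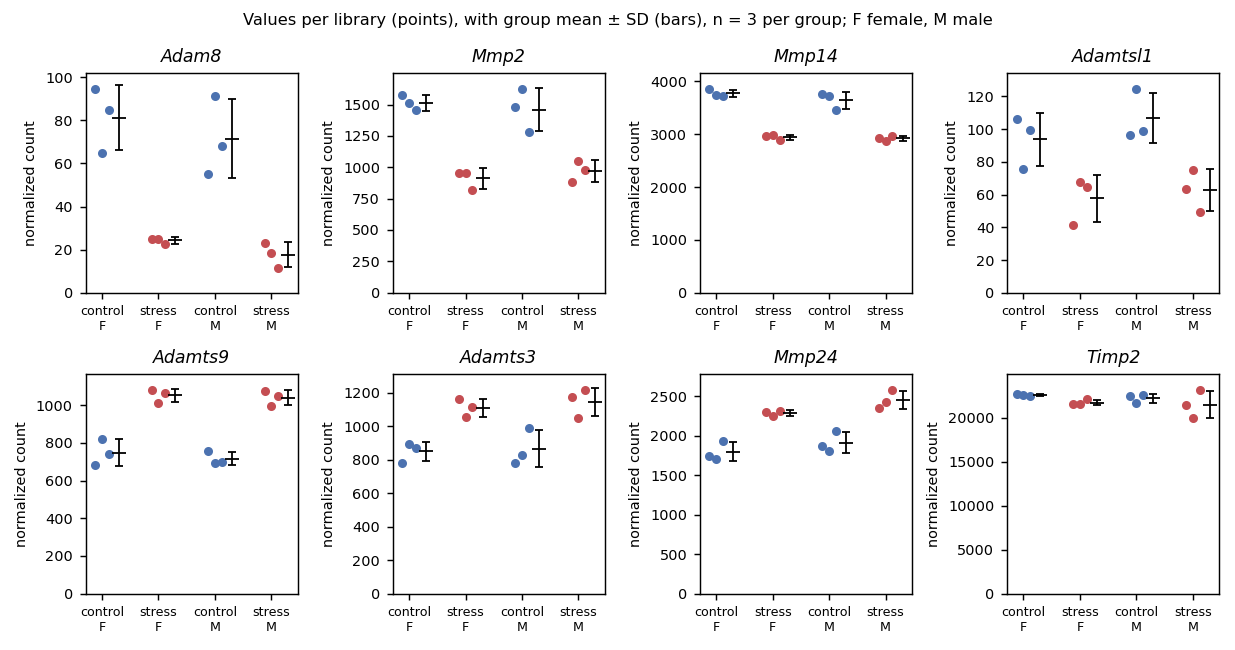
Normalized counts of 8 genes in each library (points, blue control and red stress), with the mean and SD of each group of 3 (bars), on axes that start at 0. For all but Timp2 the stress libraries of both sexes lie outside the range of the control libraries, below it for Adam8, Mmp2, Mmp14 and Adamtsl1 and above it for Adamts9, Adamts3 and Mmp24.

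Of the 7 ADAMTS proteases that cut proteoglycans such as versican and aggrecan, 3 were called higher and none lower, where 12.8% of all genes were called higher and 13.4% lower. Adamts9 was at 682, 823 and 739 normalized counts in control females and at 756, 691 and 700 in control males. It was at 1078, 1013 and 1064 in stress females and at 1075, 997 and 1046 in stress males. The groups did not overlap, and the log2 fold change was 0.52 ± 0.05 (limma adjusted p = 4.79e-06), from a mean of 732 ± 52.8 to 1046 ± 33.7. Adamts15 rose from 1242 ± 40.1 to 1469 ± 79.9, with control libraries at 1203 to 1307 and stress libraries at 1344 to 1584 (0.24 ± 0.05, limma adjusted p = 0.00143). Adamts1 rose from 308 ± 11.98 to 386 ± 41.0 (0.32 ± 0.08, limma adjusted p = 0.00510). Only stress male replicate 1, at 310.5, lay within its control range of 289 to 324. Adamts4, Adamts5, Adamts8 and Adamts20 were not called, at log2 fold changes of 0.02, 0.10, -0.33 and -0.04, of which that of Adamts8 (± 0.19) was as large as the called rise of Adamts1 and in the other direction. Adamts15 and Adamts8 are neighbours on chromosome 9 (30899155 to 30922452 and 30942562 to 30963838), as are Adamts1 and Adamts5 on chromosome 16 (85793827 to 85803113 and 85856173 to 85901828), on the mm10 build; in each pair 1 gene was called. The differences within the pairs were not tested.

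The procollagen proteases, which trim the amino ends of fibrillar procollagens, went opposite ways. Adamts3 rose from 858 ± 79.3 to 1129 ± 66.3 normalized counts (log2 fold change 0.40 ± 0.06, limma adjusted p = 0.000238), with every stress library (1052 to 1213) above every control library (782 to 990). Adamts2 fell from 824 ± 31.5 to 709 ± 65.8 (-0.22 ± 0.06, limma adjusted p = 0.0116), and its ranges overlapped by a single stress female at 796. Adamts14, the third, was at 90.4 ± 20.4 and 84.7 ± 6.35 (limma adjusted p = 0.780).

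Of the remaining ADAMTS genes, Adamts19 rose from 48.6 ± 11.6 to 76.9 ± 11.5 (0.67 ± 0.17, limma adjusted p = 0.00791), the largest called rise by log2 fold change among the members. Adamts10, which binds fibrillin, fell from 264 ± 34.9 to 204 ± 50.5 (-0.40 ± 0.10, limma adjusted p = 0.00728). Its close relative Adamts6 fell from 27.4 ± 14.1 to 13.0 ± 3.40 (-0.92 ± 0.32, limma adjusted p = 0.0452), and that call was lost without each of 8 libraries (0.0627 to 0.136), all except control female replicate 2, control male replicate 1 and stress male replicates 1 and 2. Adamts7, Adamts12, Adamts13, Adamts16, Adamts17 and Adamts18 were not called, with log2 fold changes of -0.12 to 0.21.

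The ADAMTS-like genes, which encode matrix proteins without protease activity, had 3 of 5 members lower and 1 higher. Among all tested genes 13.4% were called lower and 12.8% higher. Adamtsl1 (punctin) was at 75.4 to 124 normalized counts in control libraries, with a median of 99.2, and at 41.4 to 75.1 in stress libraries, with a median of 64.1. Its log2 fold change was -0.74 ± 0.16 (limma adjusted p = 0.00309). Adamtsl2, which binds fibrillin and latent TGF-beta binding protein, was at 99.7 to 177 in control and 75.3 to 96.8 in stress (-0.68 ± 0.14, limma adjusted p = 0.00214). Adamtsl5 was at 168 to 224 and 117 to 166 (-0.47 ± 0.11, limma adjusted p = 0.00636). For these 3 genes no stress library reached the lowest control library. Adamtsl3 rose from 326 ± 37.3 to 386 ± 45.7 (0.24 ± 0.08, limma adjusted p = 0.0366), a call that was lost without each of 7 libraries (0.0581 to 0.103): control female replicates 1 and 2, control male replicates 2 and 3, stress female replicate 3, and stress male replicates 1 and 3. Adamtsl4 was at -0.10 ± 0.11 (limma adjusted p = 0.561).

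Mmp2 had the lowest p of all members. Gelatinase A, its product, cuts denatured collagen and basement membrane collagen. Control females were at 1574, 1510 and 1453 normalized counts and control males at 1479, 1620 and 1278, whereas stress females were at 958, 958 and 816 and stress males at 881, 1050 and 980. The lowest control library, a male, still exceeded the highest stress library. The mean fell from 1486 ± 119 to 940 ± 81.5 (log2 fold change -0.66 ± 0.06, limma adjusted p = 2.81e-06). Mmp14, the membrane-type protease that activates the Mmp2 product together with TIMP2, fell as well. It was at 3464 to 3848 in control, with a median of 3736, and at 2878 to 2977 in stress, with a median of 2948 (-0.34 ± 0.04, limma adjusted p = 6.99e-06). Timp2, the third partner, was at 22416 ± 387 and 21621 ± 1012, with overlapping ranges of 21657 to 22754 and 20001 to 23112 (-0.05 ± 0.04, limma adjusted p = 0.366). Mmp2 lies on chromosome 8 from 92827291 to 92853420, Mmp14 on chromosome 14 from 54431612 to 54445364 and Timp2 on chromosome 11 from 118301069 to 118355740.

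Of the 7 membrane-anchored MMPs 3 rose and 2 fell, and of the 7 secreted ones only Mmp2 was called. Over all tested genes 12.8% were called higher and 13.4% lower. The difference between the membrane-anchored and the secreted counts was not tested. Mmp15 fell from 5691 ± 338 to 4944 ± 568.1 (log2 fold change -0.21 ± 0.05, limma adjusted p = 0.00842). Mmp24, the MT5-MMP known from neurons, where it cuts N-cadherin, rose from 1854 ± 130 to 2370 ± 116 (0.36 ± 0.05, limma adjusted p = 4.25e-05). Its control libraries were at 1711 to 2059 and its stress libraries at 2249 to 2573, without overlap. Of its exon bases, 13.6% are shared with BC029722 on the opposite strand (444 normalized counts on average), and the strand setting of the counting is not given in the sources used here. Mmp16 rose from 247 ± 36.2 to 325 ± 34.3 (0.40 ± 0.10, limma adjusted p = 0.00911). Mmp25, anchored by glycolipid, rose from 2073 ± 84.0 to 2424 ± 325 (0.22 ± 0.06, limma adjusted p = 0.0115), while Mmp17, anchored in the same way, was at 0.13 ± 0.06 (limma adjusted p = 0.105) and Mmp23 at -0.15 ± 0.17 (limma adjusted p = 0.576).

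The inducible secreted MMPs were near the floor of the assay. Mmp9 was at 12.7 to 40.4 normalized counts in control and 11.7 to 34.4 in stress (log2 fold change -0.17 ± 0.30, limma adjusted p = 0.721). Mmp8, the neutrophil collagenase, and Mmp13, a collagenase of growing cartilage, had means of 5.88 to 10.8 in either treatment and were not called. Mmp11, Mmp19 and Mmp28 had log2 fold changes of 0.02, 0.09 and -0.18.

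None of the 4 TIMP genes was called by limma over both sexes, and none had an unadjusted p under 0.05. Timp3, a matrix-bound inhibitor of ADAM17 and of ADAMTS4 and ADAMTS5, was at 6121 ± 393 in control and 6330 ± 463 in stress (log2 fold change 0.05 ± 0.05, limma adjusted p = 0.557). Of its exon bases 21.3% are shared with Syn3 on the opposite strand. Timp1, the inhibitor most often induced by injury, was at 36.9 ± 10.5 and 39.3 ± 13.6 (0.06 ± 0.20, limma adjusted p = 0.849). Timp4 was at 10.3 ± 6.90 and 16.0 ± 9.85 (0.93 ± 0.59, limma adjusted p = 0.265). At this spread the Timp1 and Timp4 values leave moderate changes undetectable.

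Females alone had 12 of 57 members called, 7 higher and 5 lower, where 11% of all genes were called (4.96% higher, 6.07% lower). Males alone had 14 called, 5 higher and 9 lower, where 15.8% of all genes were called (7.71% higher, 8.11% lower). The 8 called in each sex were Adam8, Adamts3, Adamts9, Adamts15, Adamtsl2, Mmp2, Mmp14 and Mmp24. Of these, Adam8, Adamts9, Mmp2, Mmp14 and Mmp24 stayed called in each sex whichever of the 12 libraries was left out. Adamts3 lost its call in females without control female replicate 1 or stress female replicate 1 (limma adjusted p = 0.0539 to 0.0631). Adamts15 lost it in females without each of 5 female libraries, all but control female replicate 1 (0.0576 to 0.121), and in males without control male replicate 1 or 2 or stress male replicate 2 or 3 (0.0531 to 0.0972). Adamtsl2 lost it in females without each female library but control female replicate 3 (0.0579 to 0.198) and in males without each male library but control male replicate 2 (0.0504 to 0.110). Called in females only were Adamts1, Adamts19, Adamtsl3 and Mmp15, and in males only Adam9, Adam33, Adamts2, Adamts10, Adamtsl1 and Mmp25. Of the 25 called over both sexes, 7 were called in neither sex alone: Adam10, Adam15, Adam17, Adam23, Adamts6, Adamtsl5 and Mmp16. A call in females only or in males only does not show a difference between the sexes, which is tested below. All 12 calls in females had the same sign in males, and all 14 calls in males the same sign in females. Adam8 was at -1.69 ± 0.28 in females and -1.98 ± 0.28 in males, Mmp2 at -0.73 ± 0.09 and -0.59 ± 0.09, and Adamts9 at 0.50 ± 0.08 and 0.54 ± 0.08. The count of calls in females was 7 without control female replicate 1 or stress female replicate 1, and the count in males was 8 without control male replicate 2. Of all genes 5.87% and 5.88% were then called in females, and 8.81% in males.

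When the response of males was tested against that of females, limma called none of the 57 members and 0% of all genes. Of the 57, 5 had an unadjusted p under 0.05, as did 1260 of all 15194 genes, a similar share, and the lowest adjusted p was 0.515. Adam9 had the lowest unadjusted p (0.00495), with log2 fold changes of 0.00 ± 0.06 in females and -0.29 ± 0.06 in males. The others were Mmp15 (-0.34 in females and -0.07 in males), Timp1 (-0.44 and 0.57), Adamtsl3 (0.43 and 0.05) and Mmp25 (0.08 and 0.35). Between males and females over both treatments, no member was called with limma, 2 had an unadjusted p under 0.05 (1437 of all 15194 genes did), and 0.0987% of all genes were called (0.0395% higher and 0.0592% lower in males).

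**Figure D4:**
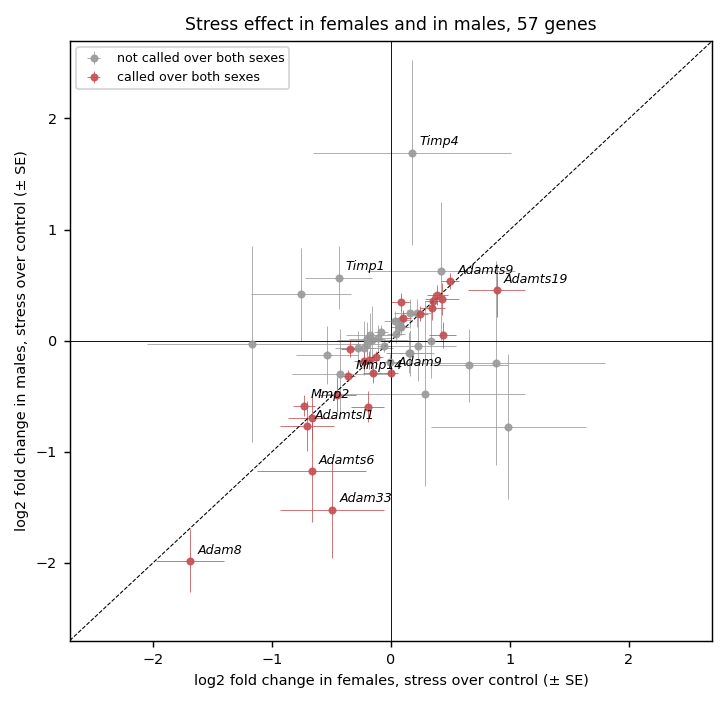
Log2 fold change of stress over control in females (x axis) and in males (y axis) for the 57 genes, with standard errors and a dashed line of equality. Red points were called over both sexes. Adam8 lies at lower left (-1.69, -1.98), Adamts9 near the line at upper right, and Adam9 at 0.00 in females and -0.29 in males.

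Partners and substrates of these proteases were read from lists chosen for their known roles, but with earlier results of these data known. Over all tested genes 12.8% were called higher and 13.4% lower. Proteins that guide ADAM10 and ADAM17 to the surface or activate them had 3 of 10 measured members lower and 1 higher. The tetraspanins Tspan17, Tspan15 and Tspan5, which associate with ADAM10, each fell by 0.20 to 0.21 on the log2 scale, and Tspan33 rose from 45.2 to 76.0 normalized counts (0.71 ± 0.18, limma adjusted p = 0.00886). The iRhom genes Rhbdf1 and Rhbdf2, which escort ADAM17, were at -0.06 and 0.01 and were not called. Membrane proteins known to be shed had 5 of 26 lower and 3 higher. Among them Prnp fell by 0.30 and Nrg1 by 0.18, whereas the adhesion molecules Chl1 and Cdh2 (N-cadherin) rose by 0.36 and 0.20 and the growth factor Areg rose by 1.07.

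Known ADAMTS substrates had 9 of 18 members lower and 2 higher, where 13.4% of all tested genes were called lower and 12.8% higher. Their median change was -0.20 on the log2 scale. Among the falls, the fibrillar collagens Col2a1, Col3a1 and Col1a1 fell by 1.51, 0.54 and 0.48, and Comp, a cartilage matrix protein, fell by 0.78. The neural proteoglycans moved apart, with Ncan up by 0.47 and Bcan down by 0.42, and Vcan and Acan were at -0.01 ± 0.10 and -0.06 ± 0.23 and not called. Vwf, the substrate of ADAMTS13, rose by 0.92 ± 0.14. In the plasminogen system and among other inhibitors, 2 of 14 fell and 1 rose, so that 21.4% were called against 26.2% of all genes. Plaur, the urokinase receptor, fell by 0.89 and Serpine2 by 0.21, whereas Spock3 rose by 0.16, and Reck, a membrane inhibitor of MMPs, was at -0.21 ± 0.08 (limma adjusted p = 0.0716). Related metalloproteases and matrix proteins had 3 of 9 higher and 2 lower, against the same 12.8% and 13.4% of all genes. The pappalysins Pappa2 and Pappa, which cut IGF-binding proteins, rose by 0.91 and 0.52, and Papln and Tll2 fell by 0.96 and 0.83.

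**Figure D5:**
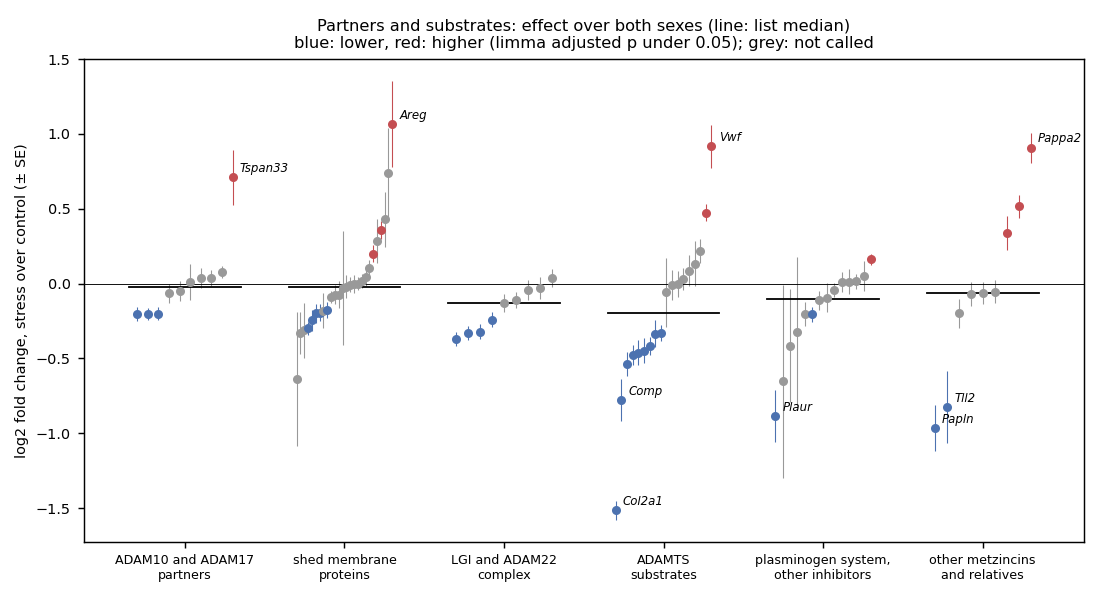
Log2 fold change of stress over control with standard errors for the genes of 6 lists of partners and substrates, ordered within each list, with the list median as a line. Blue points were called lower and red points higher. Col2a1 lies lowest at -1.51 and Areg highest at 1.07.

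Markers of the cell types that make matrix also differed between the treatments, though the lists share genes with the ADAMTS substrates above. As a background, 12.8% of all tested genes were called higher and 13.4% lower. Of 11 fibroblast markers 6 fell and 1 rose, and their summed level was 113520 to 121200 normalized counts in control and 70772 to 104680 in stress. Most of that sum is Col1a1, Col1a2 and Col3a1, which are also on the substrate list, as are Col2a1, Comp and Acan of the cartilage list. Cartilage markers had 9 of 12 measured members lower and 2 higher, at 5419 to 6057 and 3815 to 4091. Pericyte markers had 3 of 8 lower, at 8263 to 9356 and 7125 to 7612. Among 10 markers of satellite glia, 6 fell and 1 rose, at 68071 to 76108 and 50271 to 56632. Among 10 of sensory neurons, 3 fell and 2 rose, at 372580 to 394200 and 314740 to 343260. Their median log2 fold change was -0.02, with 4 positive and 6 negative, so these markers did not fall together. These 5 sums did not overlap between the treatments. Red blood cell markers had 7 of 9 measured members higher, at 2375 to 4805 and 4162.5 to 12773. Myelinating Schwann cell markers (1 of 10 lower, at 259830 to 426860 and 274550 to 391020), endothelial markers (1 of 8 lower, at 3392 to 4150 and 3463 to 3863) and bone markers (2 of 5 lower and 1 higher, at 1110 to 1364 and 1111 to 1409) had overlapping sums. When a score of the red blood cell markers was added to the model, 8 members were called (Adam8, Adamts3, Adamts9, Adamts15, Adamtsl5, Mmp2, Mmp14 and Mmp24), with 5.42% of all genes called. The red blood cell score was -0.764 to -0.303 in control. Every stress library lay above that range except stress female replicate 3 (-0.393), so this score is hard to tell apart from stress. When a score of the cartilage markers was added instead, 0 members and 0 of 15194 genes were called over both sexes; that score did not overlap between the treatments, so it cannot be told apart from stress. The part of the remaining cell types in the members' changes was not tested.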

How the data were processed

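Per the labels' protocols, total RNA was extracted with removal of genomic DNA and libraries were made with a strand-keeping kit. The submitters' processing notes list STAR, Salmon and DESeq2 and the build mm10, with no version. Annotation, strand setting and any low-count filter: not given in the sources used here. For 15322 genes the deposited table gave a normalized signal per library, scaled by the authors in the manner of DESeq2. Further columns hold a log2 fold change of the authors, its error, the deposited test score, and deposited raw and adjusted p-values. Steps of 1 read were sought in each library: 59.9% to 86.1% of values up to 12 lay within 0.1 of a step of a whole multiple in 11 libraries and 27.5% in stress female replicate 2. Because recovery of whole reads requires 95%, no count model was run.

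The filter kept 15194 genes that reached 10 in 3 or more libraries. The test was limma 3.58.1 (R 4.3.3) on log2(value + 1), fitting 4 group means with a variance prior that trends with expression. All fold changes carry the pseudocount of 1, which weighs most on low genes. Fold changes of low genes can still be larger here than those deposited by the authors, as for Timp4 (0.93 against 0.64). P-values were adjusted by Benjamini-Hochberg over all tested genes and called under 0.05. The rule for naming took every called member, 12 members of long-standing interest, and up to 4 called genes of each list by lowest p; other genes were named after their values were seen. The steps were tested on simulated data. Samples sharing a replicate number did not deviate together in every pair (correlations -0.0817 to 0.148), so no block was used. Members, lists and alternatives were chosen with earlier results of these data known. Coordinates and exon lengths are from GENCODE M21 (mm10), and promoter windows from RefSeq (GRCm38.p6). The authors' deposited table called 25 members, 24 of them shared with the calls given here and with the same sign; Adam12 was called there alone and Adam9 here alone. 1 gene of a list is not reported here.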

Additional observations from a re-analysis of the deposited data

Results flagged for a closer look

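In 4 of 64 sets of 6 libraries (32 named genes in each treatment), 1 library stood apart from the others by Dixon's test at the 95% level, about as many as chance gives at 1 in 20. Adam15 in control had its lowest value, 1819 normalized counts, in control female replicate 2, with the next at 1890. Mmp14 in control was lowest at 3464 in control male replicate 3, with the next at 3716. Timp2 in control was lowest at 21660 in control male replicate 2, with the next at 22430. Timp4 in stress was highest at 35.7 in stress male replicate 2, with the next at 15.3.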

How the results depend on the processing

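A total of 22 alternatives were run. The count of members called over both sexes (25, of which 10 higher and 15 lower) ran from 20 to 26 under 2 other pseudocounts, no filter, a filter at 50, upper quartile scaling, 1 prior variance and 2 kinds of replicate block. The share of all genes called ran from 22.2% to 29.3% in those settings, against 26.2% in the main fit. Leaving out 1 library gave 19 to 24 (8 to 10 higher and 10 to 14 lower). It gave 7 to 13 in females (3 to 7 higher and 4 to 6 lower) against 12, and 8 to 15 in males (3 to 7 higher and 5 to 10 lower) against 14. The shares of all genes called then were 20.8% to 26.1% over both sexes, 5.71% to 12.9% in females and 8.81% to 17.4% in males. With the replicate block within sex 26, 14 and 18 members were called for the sexes combined, females and males, and with the replicate block across sexes 24, 15 and 18. Of all genes 27.2%, 12.1% and 17.2% were called with the block within sex, and 27.5%, 12.4% and 17.2% with the block across sexes. The replicate numbers pair nothing in the labels. With the red blood cell score as a covariate 8 were called over both sexes (4 higher and 4 lower), 7 in females (3 higher) and 5 in males (1 higher and 4 lower), and Adam23 turned to 0.028. The red blood cell score overlapped between the treatments only through stress female replicate 3 (-0.393), so it is hard to tell apart from treatment. With a cartilage score, added after the data were seen, 0 were called over both sexes (0 higher and 0 lower), 0 in females (0 and 0) and 1 in males (0 higher and 1 lower), as were 0 of 15194 genes over both sexes. That score did not overlap between the treatments (0.190 to 0.887 in control and -0.740 to -0.293 in stress), so it cannot be told apart from treatment. With it Adam17, Adamts10, Adamts2, Adamts6 and Adamtsl1 turned to 0.149, 0.12, 0.13, 0.085 and 0.014. Of the 25 calls 17 held under every alternative other than the 2 covariates. The counts for the difference between the sexes' effects and for males against females were 0 under all 22. Values under about 10 normalized counts rest on few reads.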
